A study of Arabidopsis thaliana with 6 samples.

Results

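The genes described here are 72 Arabidopsis thaliana genes whose transcripts lay lower on every boric acid array than on any control array in roots. They were chosen from 13513 probe sets that are annotated to 1 gene, and each is measured by 1 probe set. A probe set was taken when its highest boric acid value lay below its lowest control value and its mean in control exceeded its mean in boric acid at least 2.38-fold, both means being taken on the log2 scale. Of the 88 probe sets that met this rule (0.651% of 13513), 16 named genes were set aside, among them BCAT4, GTR2, GSTU20 and Prx37, which leaves the 72. With no condition on size, the lack of overlap was met downward by 1332 probe sets (9.86%). The same rule turned upward was met by 123 probe sets (0.91%). It was also met downward by 98 of 8730 probe sets with no gene name (1.12%) and by 6 of 503 with several genes (1.19%). The rule used the boric acid and control values, so the size and direction of each difference below is a description and carries no test.

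Seedlings of Arabidopsis thaliana were grown for 5 days on agar with half-strength Murashige-Skoog salts. They were then moved to the same medium with 5 mM boric acid or without it, and roots were sampled at 12 h. Each group had 3 Affymetrix ATH1 arrays, numbered 1 to 3 in the labels as biological replicates. The labels name no line or mutation for either group. They do not say how many roots were pooled for an array, and whether a number stands for plants grown together is not stated. The comparison asks which root transcripts differ after 12 h in excess boric acid.

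Boron is a micronutrient that plants take up mainly as boric acid, which cross-links pectin in the cell wall and is toxic in excess, with root growth among the first processes to slow. Roots sense the state of their walls through receptor kinases at the plasma membrane and through small secreted peptides such as those of the RALF family. Excess metabolites and foreign compounds are conjugated to sugars or glutathione by glycosyltransferases and glutathione transferases and moved into the vacuole. Of the 72 genes, 8 carry a symbol in the reference table and 64 are known there by locus only. The families given for 55 of those loci are general knowledge of the Arabidopsis genome and were assigned after the values had been seen, and 9 genes were left without one.

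Values are log2 expression values given in the order of arrays 1, 2 and 3. Each difference is mean control minus mean boric acid, with the standard error of the difference of the 2 means (n = 3 arrays a group). This error does not pair the arrays by number. Differences ran from 1.2505 to 2.75 with a median of 1.56, which is 2.38-fold to 6.71-fold with a median of 2.95-fold. The median over all 13513 probe sets was 0.02. A difference of at least 2 was reached by 8 genes, 34 lay between 1.5 and 2, and 30 lay below 1.5. The space between the highest boric acid value and the lowest control value was 0.86 in the median, over 1 in 27 genes and under 0.25 in 8. The arrays numbered 1 stood apart in RNA quality. Actin signal at the 3′ end exceeded that at the 5′ end, a gap that widens as RNA degrades, by 2.96 on boric acid 1 and 2.60 on control 1. The gap was 1.71 and 1.67 on boric acid 2 and control 2, and 1.28 and 1.23 on boric acid 3 and control 3. It thus followed the array number in both groups. Without both arrays numbered 1, 83 genes met the rule, 55 of the 72 among them, and the median difference over the 72 was 1.54. With fewer arrays the lack of overlap is easier to meet, and the 72 genes met it already. Only the size limit could drop one of them, so these values are no check on RNA quality. In bulk roots, fewer cells of a type and less RNA per cell cannot be told apart.

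**Figure D1:**
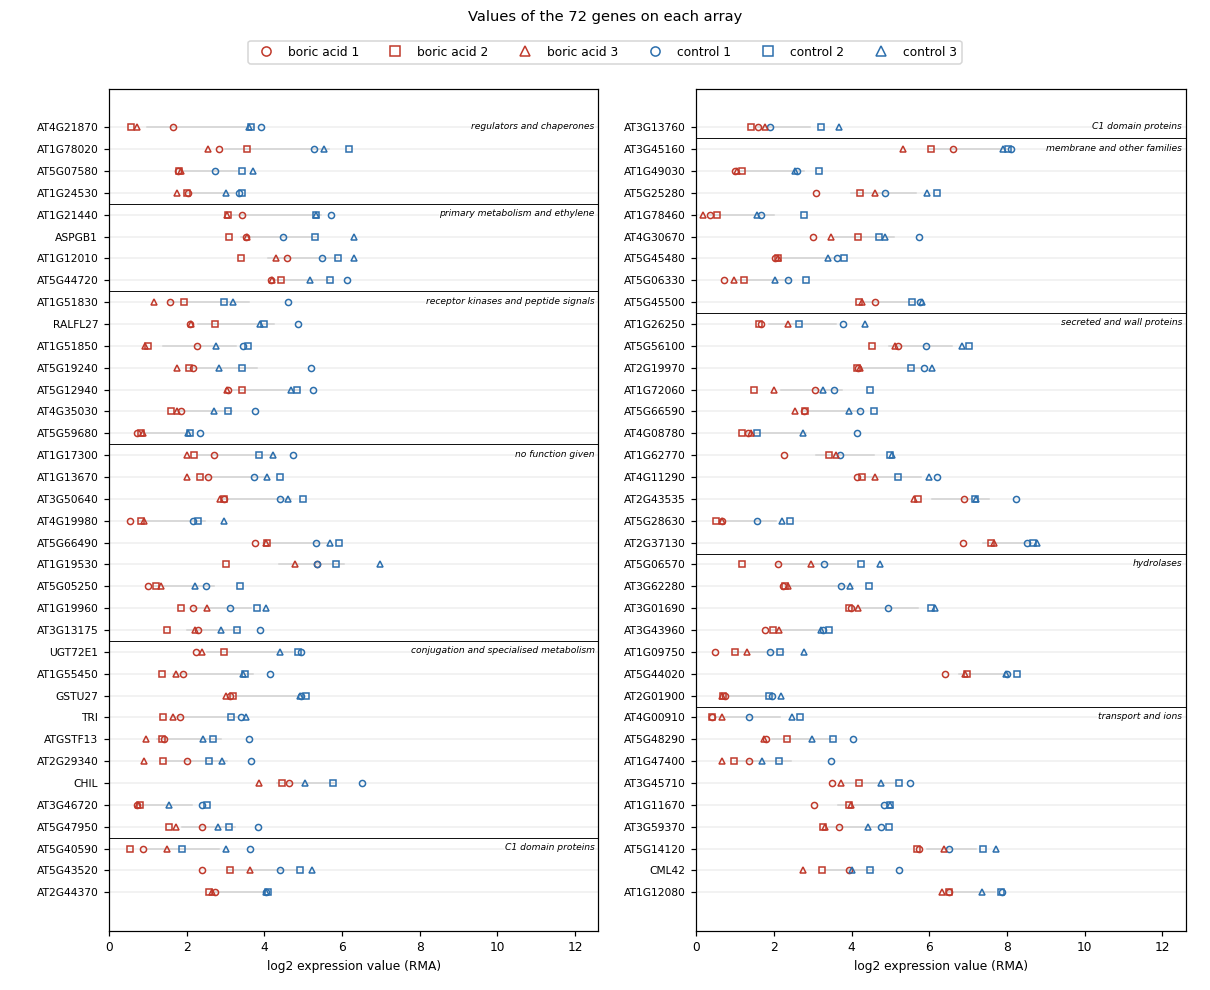
Log2 expression value of each of the 72 genes on each array, red for boric acid and blue for control, with the marker shape giving the array number and lines separating functional groups. In every gene the 3 boric acid values lie below the 3 control values, as the rule requires, with spaces from 0.01 to 1.97.

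At the edge of the rule, AT1G12080 was just inside with a difference of 1.2505. AT5G26280, with 1.2464, and EXPB1, with 1.24, were just outside because the difference was too small. Another 11 probe sets had a large enough difference and overlapping groups, from 1.31 for AT1G64405 to 1.80 for AT3G23880.

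Regulators and chaperones, 4 genes in all, held the 2 largest differences. AT4G21870, of the small heat shock protein family that holds unfolding proteins, read 1.65, 0.57 and 0.73 in boric acid and 3.92, 3.65 and 3.61 in control. Its difference was 2.75 ± 0.35, or 6.71-fold, and boric acid 2 and 3 lay below the level of boric acid 1. AT1G78020, an FCS-like zinc finger gene of the family that binds the energy-sensing kinase SnRK1, read 2.84, 3.55 and 2.56 in boric acid and 5.29, 6.19 and 5.53 in control, with a difference of 2.69 ± 0.40. In this gene array 2 was the highest of its group in both conditions. The AP2/ERF transcription factor gene AT5G07580 was lower by 1.49, at 1.77 to 1.85 in boric acid and 2.73 to 3.72 in control. AT1G24530, a gene of a WD40 repeat protein, was lower by 1.32. Of the small heat shock genes in a list by gene names, only 1 other was measured, and it did not pass limma's test (change of 0.33).

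Genes of primary metabolism and ethylene synthesis had differences between 1.40 and 2.28. AT1G21440 is placed by annotation name only in a phosphoenolpyruvate carboxylase-like family, and its enzyme activity was not examined here. It read 3.42, 3.07 and 3.04 in boric acid and 5.71, 5.34 and 5.32 in control, a difference of 2.28 ± 0.18. The SDs were 0.21 and 0.22, so all 3 arrays of a group lay close together. ASPGB1, an asparaginase that releases ammonium from asparagine, read 3.54, 3.08 and 3.57 in boric acid and 4.48, 5.30 and 6.31 in control. Its control values spread over nearly 2 units while its boric acid values lay close, and the difference was 1.97 ± 0.55. The other asparaginase found by symbol, ASPGA1, had means of 4.90 and 4.97 and did not pass limma's test (adjusted p = 0.9295). AT1G12010, an ACC oxidase of the last step of ethylene synthesis, read 4.59, 3.39 and 4.31 in boric acid and 5.48, 5.89 and 6.32 in control, a difference of 1.80 ± 0.43. Array 3 was the highest control and array 2 the lowest boric acid value. AT5G44720, of the molybdenum cofactor sulfurase family, was lower by 1.40 ± 0.29.

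Receptor kinases and peptide signals made up 7 genes. AT1G51830 and AT1G51850 encode leucine-rich repeat receptor-like kinases. AT1G51830 read 1.59, 1.94 and 1.15 in boric acid and 4.60, 2.97 and 3.21 in control, a difference of 2.03 ± 0.56. Control 1 stood above the other control arrays, and without it the difference was 1.53. AT1G51850 read 2.26, 1.01 and 0.94 in boric acid and 3.46, 3.59 and 2.75 in control, a difference of 1.87 ± 0.50, with boric acid 1 above the other boric acid arrays. RALFL27, a secreted RALF-like peptide, read 2.08, 2.72 and 2.11 in boric acid and 4.86, 4.00 and 3.90 in control, a difference of 1.95 ± 0.37. In this gene too, control 1 was the highest control array. The leucine-rich repeat protein gene AT5G12940 read 3.08, 3.42 and 3.03 in boric acid and 5.25, 4.84 and 4.69 in control, a difference of 1.75 ± 0.21. Its values were close within each group. AT5G19240, of a GPI-anchored glycoprotein family, read 2.17, 2.05 and 1.75 in boric acid and 5.21, 3.42 and 2.83 in control. Control 1 lay 1.79 above the next control array. Its difference of 1.83 ± 0.73 was 1.13 without control 1. The protein kinase gene AT4G35030 and the receptor-like kinase gene AT5G59680 were lower by 1.45 and 1.33, AT5G59680 to 0.73 to 0.89 in boric acid.

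Of 11 measured RALF genes by symbol, RALFL27 was the only one that met the rule. The other 10 had changes in boric acid between -0.31 and 0.42 with a median of -0.01, and none passed limma's test with or without the replicate number as a block (0 at an unadjusted p under 0.05). Over all probe sets with 1 gene limma called 1.08% lower and 1.6% higher, and 3.18% and 4.58% with the block. RALFL32 and RALFL33, the most highly expressed of them, had boric acid means of 8.79 and 6.43 and control means of 8.37 and 6.45.

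The reference table places AT1G51830 and AT1G51850 with 1 gene between them on chromosome 1. The locus between them, AT1G51840, was near background, with means of 0.19 and 0.39. Of the 15 protein-coding genes from AT1G51780 to AT1G51900, 10 had a named probe set. Of the 8 that are not members, AT1G51790 differed by -0.90 ± 0.21 (limma, SE, adjusted p = 0.0877) and AT1G51860 by -0.53 ± 0.14 (adjusted p = 0.1048), and neither passed. Both fell when the replicate number was a block, at adjusted p = 0.01395 and 0.03735. AT1G51890 had means of 2.41 in boric acid and 2.48 in control. The other 5, at means under 0.4 in both groups, did not pass with or without the block.

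**Figure D2:**
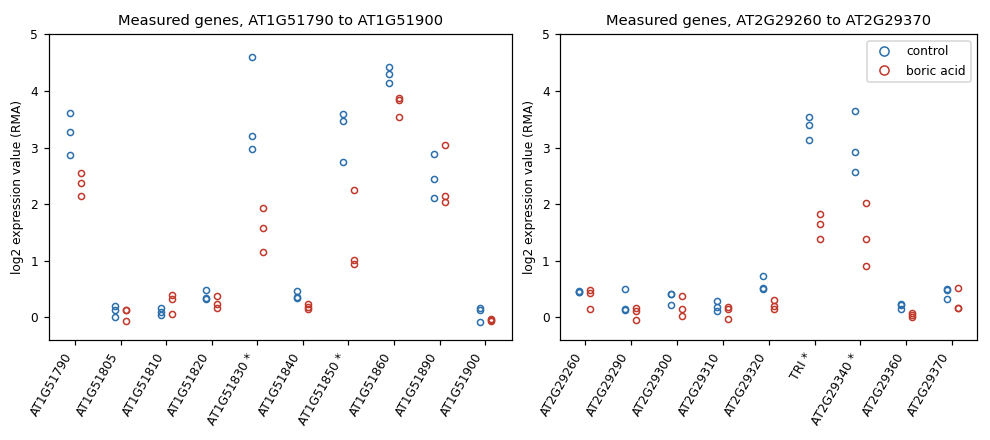
Log2 expression values of the measured genes of 2 chromosome runs in locus order, 3 points a group, blue for control and red for boric acid, with members of the 72 marked by an asterisk. Control values of AT1G51830 and AT1G51850 lie between 2.75 and 4.60 and those of TRI and AT2G29340 between 2.58 and 3.65, while the other genes of the reductase run stay under 0.75.

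Enzymes of conjugation and specialised metabolism gave 9 genes. UGT72E1, which glucosylates the lignin precursors coniferyl and sinapyl aldehyde, read 2.23, 2.95 and 2.40 in boric acid and 4.93, 4.86 and 4.42 in control, a difference of 2.21 ± 0.27. Every control array lay at least 1.46 above every boric acid array. AT1G55450, of the S-adenosylmethionine-dependent methyltransferases, read 1.90, 1.36 and 1.72 in boric acid and 4.15, 3.51 and 3.44 in control, a difference of 2.04 ± 0.28. GSTU27, a tau-class glutathione transferase, read 3.12, 3.20 and 3.02 in boric acid and 4.95, 5.07 and 4.92 in control. Its difference of 1.86 ± 0.07 had one of the smallest standard errors, with SDs of 0.09 and 0.08. ATGSTF13, a phi-class glutathione transferase, read 1.42, 1.36 and 0.96 in boric acid and 3.60, 2.67 and 2.41 in control, a difference of 1.65 ± 0.39. Array 1 was the highest of its group in both conditions.

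TRI and AT2G29340 encode short-chain reductases, and TRI is named for the enzyme of tropane alkaloid synthesis in the nightshade family. TRI read 1.82, 1.39 and 1.66 in boric acid and 3.40, 3.14 and 3.54 in control, a difference of 1.74 ± 0.17. AT2G29340 read 2.02, 1.38 and 0.90 in boric acid and 3.65, 2.58 and 2.92 in control, a difference of 1.61 ± 0.45. They are next to each other in the reference table, the only adjacent pair among the 72 genes. Of 11 protein-coding genes from AT2G29260 to AT2G29370, 7 others were measured, at means of at most 0.36 in boric acid and 0.59 in control, and none passed limma's test with or without the replicate block (1 at an unadjusted p under 0.05). AT3G46720, a UDP-glycosyltransferase gene, AT5G47950, an HXXXD acyltransferase gene, and CHIL, a chalcone isomerase-like protein of flavonoid synthesis, were lower by 1.39, 1.36 and 1.46.

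In the UGT72 family by symbol, 4 other genes were measured and none passed limma's test (0 at an unadjusted p under 0.05). UGT72E2, which also acts on lignin precursors, had a change of -0.90 ± 0.45 (SE, adjusted p = 0.3983). With the replicate block it fell (adjusted p = 0.01759) and the other 3 did not pass. Of the tau-class glutathione transferases found by symbol, 9 others beside GSTU27 and the gene set aside were measured. GSTU26 fell by 1.21 ± 0.18 (limma, SE, adjusted p = 0.02315), a call kept in 2 of the 6 fits without 1 array, and 8 did not pass. With the block 1 fell and 2 rose. The other phi-class gene found by symbol, GSTF4, had a change of -0.27 ± 0.29. Genes of these classes under other names were not sought. Across the list of UDP-glycosyltransferases by symbols and synonyms, which does not hold AT3G46720, 1 of 50 other genes fell and 1 rose. UGT74B1, a glucosyltransferase of glucosinolate synthesis, fell by 1.22 ± 0.14 (adjusted p = 0.01171, kept in 3 of 6 fits without 1 array), and UGT73B4 rose by 1.18 ± 0.14 (adjusted p = 0.01277, kept in 2 of 6). With the replicate block 5 of the 50 fell and 4 rose. Over probe sets with 1 gene that did not meet the rule, limma called 0.67% lower and 1.61% higher, and 2.58% and 4.61% with the block.

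Proteins with cysteine- and histidine-rich C1 domains, a family whose members bind zinc and whose functions in plants are little known, gave 4 genes. AT5G40590 read 0.88, 0.55 and 1.49 in boric acid and 3.63, 1.87 and 3.02 in control, a difference of 1.87 ± 0.59. Its control 2 value lay only 0.38 above boric acid 3. AT5G43520 read 2.39, 3.11 and 3.62 in boric acid and 4.39, 4.93 and 5.22 in control, a difference of 1.81 ± 0.43. AT2G44370 was lower by 1.41 ± 0.05 with a control SD of 0.02, and AT3G13760 by 1.34 ± 0.54. The control 1 value of AT3G13760, 1.89, lay 0.12 above the highest boric acid value. AT5G40590, AT5G43520 and AT3G13760 therefore met the rule by narrower spaces than AT2G44370, whose space was 1.31.

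Secreted and wall proteins formed the largest group, with 11 genes and differences between 1.28 and 1.70. AT1G26250, of the extensins that form a protein network in the wall, read 1.68, 1.61 and 2.35 in boric acid and 3.78, 2.64 and 4.33 in control, a difference of 1.70 ± 0.55. Its control values were spread, with control 2 only 0.29 above boric acid 3. AT5G56100, a glycine-rich protein gene, read 5.20, 4.53 and 5.11 in boric acid and 5.91, 7.03 and 6.83 in control, a difference of 1.64 ± 0.40. The CAP family gene AT2G19970, related to pathogenesis-related protein 1, read 4.17, 4.13 and 4.22 in boric acid and 5.85, 5.53 and 6.05 in control, a difference of 1.64 ± 0.16. AT5G66590, of the same family, read 2.78, 2.80 and 2.55 in boric acid and 4.22, 4.57 and 3.93 in control, a difference of 1.53 ± 0.20. Both kept their arrays close, with SDs of 0.05 to 0.32. AT1G72060, of a serine peptidase inhibitor family, read 3.06, 1.497 and 2.01 in boric acid and 3.54, 4.47 and 3.26 in control, a difference of 1.57 ± 0.59, and its boric acid 1 value was just 0.20 below control 3.

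Class III peroxidases, which build and loosen wall cross-links with peroxide, gave 3 genes. AT2G37130, at 8.65 ± 0.12 (SD, n = 3) in control the most highly expressed of the 72, was lower by 1.28 ± 0.26. AT4G11290 was lower by 1.47 ± 0.33. AT4G08780 had control values of 4.14, 1.57 and 2.75 against 1.17 to 1.40 in boric acid, and its difference of 1.52 ± 0.75 was 0.86 without control 1. The other wall genes had differences of 1.49 for AT1G62770, of the pectin methylesterase inhibitor family, 1.45 for AT2G43535, a defensin-like gene, and 1.45 for AT5G28630, a glycine-rich protein gene. AT1G62770 was lower on the arrays numbered 1 in both groups, at 2.26 in boric acid and 3.71 in control, against 3.40 to 3.60 and 5.00 to 5.03.

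Hydrolases gave 7 genes. AT5G06570, an alpha/beta hydrolase gene, read 2.11, 1.18 and 2.94 in boric acid and 3.29, 4.24 and 4.73 in control, a difference of 2.01 ± 0.66. The boric acid SD of 0.88 and the control SD of 0.73 left a space of 0.35. AT3G01690, also of the alpha/beta hydrolases, read 3.98, 3.92 and 4.16 in boric acid and 4.93, 6.04 and 6.14 in control, a difference of 1.69 ± 0.40. The GDSL lipase gene AT3G62280 read 2.22, 2.28 and 2.37 in boric acid and 3.73, 4.44 and 3.94 in control, a difference of 1.75 ± 0.21. The boric acid arrays of both genes lay within 0.24 of each other. The other differences were 1.34 for the cysteine proteinase gene AT3G43960, 1.34 for the aspartyl protease gene AT1G09750, 1.33 for the acid phosphatase gene AT5G44020 and 1.31 for AT2G01900, related to inositol polyphosphate phosphatases. AT5G44020 stayed high, at 6.76 ± 0.32 (SD, n = 3) in boric acid and 8.08 ± 0.15 in control. AT1G09750 and AT2G01900 were low, at boric acid means of 0.93 and 0.70.

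Transport and ion genes had the smallest differences as a group, with a median of 1.30 over 9 genes. AT4G00910, of the aluminium-activated malate transporters that release organic anions, read 0.40, 0.40 and 0.67 in boric acid and 1.36, 2.66 and 2.46 in control, a difference of 1.67 ± 0.41. AT5G48290, with a heavy metal-associated domain, read 1.80, 2.33 and 1.75 in boric acid and 4.03, 3.51 and 2.98 in control, a difference of 1.55 ± 0.35. Control 1 was the lowest control array in AT4G00910 and the highest in AT5G48290. AT1G47400, known to encode a short peptide of the iron deficiency response, had control values of 3.47, 2.12 and 1.69 against 0.67 to 1.36 in boric acid. Its difference of 1.43 ± 0.57 was 0.90 without control 1. AT3G45710, of the nitrate and peptide transporter family, was lower by 1.35, the MATE efflux gene AT1G11670 by 1.30 and AT5G14120, of the major facilitator family, by 1.27.

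Calcium-related genes were AT3G59370 and AT1G12080, related to vacuolar calcium-binding proteins, and CML42, a calmodulin-like calcium sensor. AT3G59370 was lower by 1.30 ± 0.20, AT1G12080 by 1.2505 ± 0.19 and CML42 by 1.26 ± 0.49. In CML42 the control values of 5.22, 4.48 and 4.01 ran beside boric acid values of 3.93, 3.25 and 2.76, so that each same-numbered pair differed by 1.23 to 1.28 while the space between groups was 0.07. Of 6 other calmodulin-like genes by symbol, CML43 fell by 0.84 ± 0.13 (limma, SE, adjusted p = 0.02863, kept in 1 of 6 fits without 1 array) and 5 did not pass. The block gave equal counts. The shares called lower over probe sets that did not meet the rule were 0.67%, and 2.58% with the block. In the nitrate and peptide transport list, GTR2 met the rule and was set aside, so it was not tested here. The list was searched by symbols and synonyms and does not hold the member AT3G45710. Of its 11 other genes, 0 fell in limma's test (0 lower at an unadjusted p under 0.05). AT2G26690 rose by 1.27 ± 0.21 (limma, adjusted p = 0.03428, kept in 2 of 6 fits without 1 array).

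Membrane proteins and other families gave 8 genes. AT3G45160, a putative membrane lipoprotein gene, read 6.62, 6.04 and 5.33 in boric acid and 8.10, 8.02 and 7.90 in control, a difference of 2.01 ± 0.38 at a high level. AT4G30670, of the same kind, read 3.005, 4.15 and 3.47 in boric acid and 5.72, 4.69 and 4.86 in control, a difference of 1.55 ± 0.46. AT1G49030, of the PLAC8 family, read 0.99, 1.18 and 1.05 in boric acid and 2.60, 3.17 and 2.54 in control, a difference of 1.70 ± 0.21. In AT1G49030 the boric acid values were close together near 1. AT5G25280, related to serine-rich proteins, read 3.08, 4.22 and 4.61 in boric acid and 4.84, 6.21 and 5.93 in control, a difference of 1.69 ± 0.62, with array 1 the lowest of each group. AT1G78460, of the SOUL haem-binding family, read 0.35, 0.53 and 0.17 in boric acid and 1.67, 2.78 and 1.55 in control, a difference of 1.66 ± 0.41. Its boric acid 3 value was the only one among the 72 genes at or under 0.217, the highest value of control probe sets that match no plant transcript.

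AT5G45480, of the DUF594 family, read 2.01, 2.10 and 2.10 in boric acid and 3.63, 3.79 and 3.39 in control, a difference of 1.54 ± 0.12. AT5G45500, related to RNI-like proteins and placed with 1 gene between them, was lower by 1.36 ± 0.15. The next measured gene, AT5G45510, had means of 6.40 and 6.52 and did not pass limma's test (adjusted p = 0.8362, and 0.6077 with the block). AT5G06330, of the hydroxyproline-rich glycoproteins, was lower by 1.43.

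Another 9 genes were left without a function. AT1G17300 read 2.71, 2.19 and 2.00 in boric acid and 4.75, 3.87 and 4.23 in control, a difference of 1.98 ± 0.33. AT1G13670 read 2.55, 2.35 and 2.02 in boric acid and 3.73, 4.39 and 4.06 in control, a difference of 1.76 ± 0.25. AT3G50640 read 2.96, 2.96 and 2.87 in boric acid and 4.40, 5.01 and 4.62 in control, a difference of 1.75 ± 0.18. All 3 had spaces over 1 between the groups. AT4G19980 read 0.55, 0.83 and 0.89 in boric acid and 2.16, 2.29 and 2.97 in control, a difference of 1.71 ± 0.27. AT5G66490 read 3.77, 4.08 and 4.03 in boric acid and 5.34, 5.92 and 5.68 in control, a difference of 1.69 ± 0.19. AT1G19530 read 5.36, 3.01 and 4.80 in boric acid and 5.36, 5.84 and 6.98 in control. Its boric acid 1 and control 1 values differed by 0.01, the smallest space among the 72, and its difference of 1.67 ± 0.85 was 0.98 without boric acid 2. AT5G05250, AT1G19960 and AT3G13175 were lower by 1.51, 1.47 and 1.35.

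**Figure D3:**
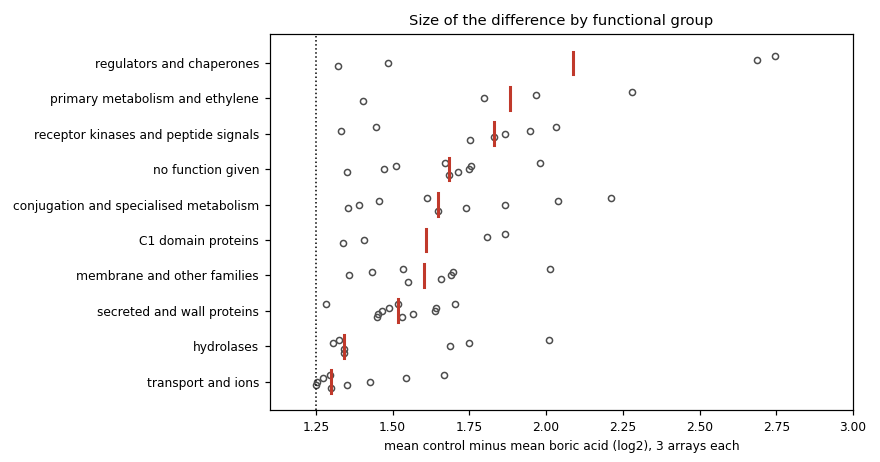
Mean control minus mean boric acid (log2, 3 arrays each) for each of the 72 genes by functional group, with the group median as a red bar and the rule's lower limit dotted. Medians run from 1.30 for transport and ions to 2.09 for regulators and chaperones, whose 4 genes lie between 1.32 and 2.75.

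Levels differed widely between the genes. Control means ran from 2.00 to 8.65 with a median of 4.06, above 82.5% of all probe sets with 1 gene, whose median was 1.09. The rule favours such levels, because a gene needs a control mean well above background to meet it. Among the 6459 probe sets whose control mean was at least as large as the difference asked for, the median was 3.39. In boric acid 11 of the 72 genes had a mean under 1, where values compress towards background, so their differences may be understated. The rule chose all 72 by the size of the difference, which may overstate it. Neither was tested. The genes span a median of 1596 bp in the TAIR10.1 table, against 2117 bp over all named genes. By chromosome, 20, 7, 15, 8 and 22 lay on chromosomes 1 to 5, which is 27.8%, 9.72%, 20.8%, 11.1% and 30.6%, against 25.7%, 16.4%, 20.4%, 14.6% and 22.4% of all named probe sets.

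**Figure D4:**
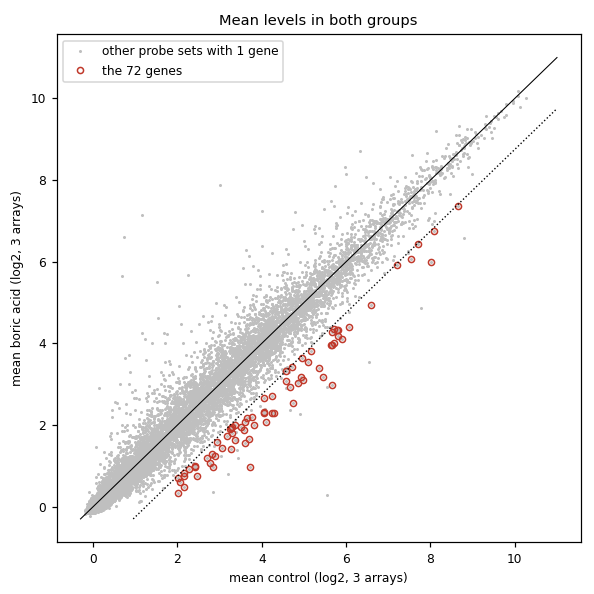
Mean boric acid value against mean control value (log2, 3 arrays each) for the 13513 probe sets with 1 gene in grey and the 72 genes in red, with the line of equal values solid and the rule's limit dotted. The 72 genes lie on or below the dotted line at control means from 2.00 to 8.65; grey points below that line are genes set aside by name or with overlapping groups.

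Among the 72 genes, 7 pairs lay within 10 steps of each other in the order of protein-coding genes, involving 14 genes. Beside the pairs already named, these were AT5G05250 and CHIL with 1 gene between them, AT1G12010 and AT1G12080 with 7, and AT3G50640 and UGT72E1, and AT5G66490 and AT5G66590, with 9 each. The measured genes within 3 steps of a member that did not meet the rule themselves numbered 199, and these were tested with limma. Of them 3 (1.51%) fell and 3 (1.51%) rose, against 0.67% and 1.61% of the 13425 probe sets with 1 gene that did not meet the rule. With the replicate block 11 (5.53%) fell and 8 (4.02%) rose, against 2.58% and 4.61%. The genes that passed were chosen for naming after their values were seen.

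MSRB9, a methionine sulfoxide reductase gene near AT4G21870, fell by 1.205 ± 0.16 (limma, SE, adjusted p = 0.01817). AT5G19250, next to AT5G19240, fell by 0.95 ± 0.17 (adjusted p = 0.04289), from 5.49, 5.31 and 5.03 in control to 4.06, 4.47 and 4.45 in boric acid. AT1G12020, near AT1G12010, fell by 0.90 ± 0.17 (adjusted p = 0.04689). Prx37, a peroxidase beside AT4G08780, met the rule and was set aside, so it is not counted here. The neighbours that rose were SKP2A near AT1G21440 by 1.19 ± 0.17 (adjusted p = 0.02194), AT5G44730 near AT5G44720 by 1.22 ± 0.23 (adjusted p = 0.04922) and AT3G45680 near AT3G45710 by 0.72 ± 0.13 (adjusted p = 0.04624). AT3G45680 belongs to the same transporter family as AT3G45710. Each of these 6 calls was kept with the block and in at most 2 of the 6 fits without 1 array, and that of AT5G19250 in 0. The counts of 3 and 3 became 0, 0 and 0 lower and 0, 0 and 0 higher without boric acid 1, 2 and 3, and 4, 0 and 2 lower and 7, 0 and 0 higher without control 1, 2 and 3.

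Wider lists of families were searched by gene symbols and synonyms, since the reference table gives no product names. The lists are therefore partial and miss members such as AT3G45710 and AT3G46720. Of 29 lists, 21 had a measured gene and 8 had none, among them receptor-like kinases, GDSL lipases and FCS-like zinc fingers. The 21 held 247 genes, of which 2 are members, UGT72E1 and CHIL, and 2, BCAT4 and GTR2, met the rule and were set aside. Of the other 243, 3 (1.23%) fell and 8 (3.29%) rose in limma's test, against 0.67% and 1.61% of probe sets that did not meet the rule. With the replicate block 15 fell and 19 rose, and the shares to set beside them are 2.58% and 4.61%. These counts changed when 1 array was left out, and the cause was not tested. Without boric acid 1, 2 and 3 the counts lower were 2, 0 and 0 and the counts higher 3, 1 and 2. Without control 1, 2 and 3 they were 6, 0 and 1 lower and 13, 1 and 2 higher.

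Beside those named above, PMEPCRF, a pectin methylesterase gene, fell by 0.84 ± 0.15 (adjusted p = 0.04289), while the related ATPMEPCRB rose by 1.24 ± 0.20 (adjusted p = 0.03207). The carboxypeptidase-like gene scpl26 fell by 0.79 ± 0.14 (adjusted p = 0.04353) and the cysteine proteinase gene CP1 rose by 2.896 ± 0.33 (adjusted p = 0.0112), in a list of 34 proteases where 2 fell and 2 rose with the replicate block. Cpn60beta3, CYP71B28, DELTA-OAT and EULS3 rose by 0.62 ± 0.11, 0.75 ± 0.12, 1.03 ± 0.20 and 2.28 ± 0.24 (limma, adjusted p = 0.03497, 0.02907, 0.04917 and 0.009756). CP1 kept its call in 5 of the 6 fits without 1 array, EULS3 in 4, and the other 6 in 1. For the called counts of these lists, the shares over probe sets that did not meet the rule were 0.67% lower and 1.61% higher. With the block they were 2.58% and 4.61%. In the lists of 17 sugar transport, 26 metal and cation transport and 20 glutaredoxin and thioredoxin genes, none passed limma's test without the block. At an unadjusted p under 0.05 they held 2, 1 and 2 lower and 2, 3 and 4 higher genes, and with the block 2, 1 and 0 fell and 2, 2 and 1 rose. The 8 cytokinin and ethylene genes and the 11 auxin genes held none past limma's threshold without the block, with 0 and 1 at an unadjusted p under 0.05, and with the block 1 auxin gene fell. The block also gave 1 lower gene each among 28 cytochromes P450, 2 amino acid synthesis and 2 gibberellin and brassinosteroid genes, and 2 and 1 higher among 7 phenylpropanoid and terpenoid and 8 cell cycle genes, where limma without it called 0 in those directions (5, 1, 1, 3 and 2 at an unadjusted p under 0.05).

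The arrays numbered 1 stood apart in a share of the genes. In 16 of the 72 genes (22.2%) array 1 was the highest of its group in both conditions, and in 11 (15.3%) the lowest in both. Over all 13513 probe sets these shares were 19.8% and 16.9%. Of the 16, 5 are among the 9 conjugation and specialised metabolism genes and 3 among the 9 transport and ion genes. No gene of the 7 hydrolases or the 4 C1 domain proteins is among them. The shares of the 72 lie near those of all probe sets, so these small counts by group are a description only. The part of RNA quality in these offsets was not tested. Within same-numbered arrays the median difference over the 72 genes was 1.61, 1.66 and 1.51 for numbers 1, 2 and 3. In 27 genes all 3 same-numbered differences reached the size the rule asks of the mean.

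**Figure D5:**
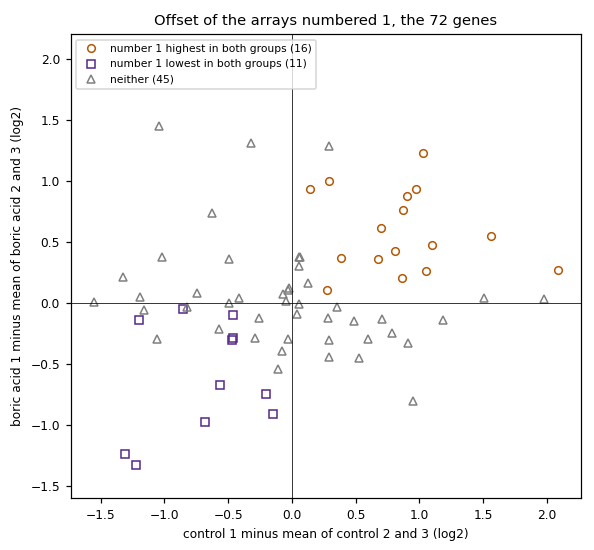
Offset of the array numbered 1 from the mean of arrays 2 and 3 (log2) in control against the same offset in boric acid, one point a gene, with shapes for genes in which array 1 is the highest in both groups, the lowest in both, or neither. Offsets run from -1.55 to 2.08 in control and from -1.33 to 1.45 in boric acid, with medians of 0.05 and 0.01.

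Of 39 markers of root cell types and green tissue, 7 were measured by a named probe set. The root hair genes EXPA7 and EXPA18 had boric acid means of 3.76 and 4.22 and control means of 3.74 and 3.55, and EXPA18 rose by 0.67 only with the replicate block (adjusted p = 0.03525). The green tissue genes LHCB4.1 and LHCB4.2 were at 4.15 and 2.37 in control roots, and LHCB4.2 was lower on boric acid arrays by 0.99 ± 0.33 and did not pass (adjusted p = 0.1872, and 0.1392 with the block, though it passed in 1 of 6 fits without 1 array). AT1G62500, a marker of the cortex, fell by 0.78 ± 0.15 (limma, SE, adjusted p = 0.0488), from 0.93 to 1.35 in control to 0.20 to 0.51 in boric acid, a call kept in 1 of 6 fits without 1 array, and the other cortex gene, JKD, had means of 0.94 and 0.96. LBD16, of the lateral root list, had a change of -0.46 ± 0.12 and did not pass. The part of the cortex in the differences of the 72 genes was not tested. No marker of xylem, phloem, endodermis, non-hair epidermis, root cap or the stem cell niche was measured by name.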

How the data were processed

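Transcripts of Arabidopsis roots were measured on 6 Affymetrix ATH1 arrays. The deposited values are log2 expression values per probe set, which the authors made with RMA, per the submitters' processing notes. Its version and background step are not given in the sources used here. The groups come from the sample titles. Probe sets were joined to genes through the array's probe table and the RefSeq table of TAIR10.1, used for names and gene order only. Of 22746 probe sets, 13513 had 1 gene, 503 several and 8730 none. Members were found by the rule. Genes that did not meet it were compared with limma 3.58.1 under R 4.3.3 (linear model per probe set, empirical Bayes, two-sided, Benjamini-Hochberg over 22746 probe sets, threshold 0.05). In simulated data with 200 changed probe sets, limma recovered 156 with 6 false calls, at a median estimate of 2.01 for raised ones. The rule found 99 of 100 lowered probe sets and 25 unchanged ones. The simulated noise was independent between arrays, so it held no effect shared by same-numbered arrays. Of several probe sets, the one with the highest mean stood for a gene. Precision is limited by the number of arrays.

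Deviations of same-numbered arrays from their group means correlated over probe sets at 0.61, 0.23 and 0.62 for numbers 1, 2 and 3. Between arrays of different numbers the correlations ran from -0.62 to 0.28, so the value for number 2 lay within that range. Over the members alone, the same-numbered correlations were 0.25, 0.12 and 0.68. The numbers were taken to pair the arrays, from the data, since the labels do not say. For number 2 these correlations do not show a pairing. Fits with the number as a block are given beside results they change. The members and gene lists were chosen with earlier results of these data known. The 40 largest differences are given on every array, and of list genes up to 3 past the threshold by adjusted p are named. Families by symbol, chromosome runs, neighbours and functional groups were chosen after values were seen. Promoter motifs planned for the genes were not run, and promoter or protein sequences were not used here. Alternatives were another limit of the difference, normalization, name source, low-value filter, trend, block, and each array left out.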

Additional observations from a re-analysis of the deposited data

How the results depend on the processing

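The 72 genes became 129 with a limit of 1 and 42 with a limit of 1.5. Quantile normalization and median centring each gave 74, RefSeq names alone and a filter on low values 72, and leaving out 1 array 78 to 109, the highest without control 1. Both arrays numbered 1 left out, an alternative chosen after seeing the data, gave 83, of which 55 are among the 72. Fewer arrays make the lack of overlap easier to meet, so larger counts without an array are no sign of stability. The median change over the 72 genes, -1.56, lay between -1.62 and -1.51 without 1 array, at -1.59 and -1.58 with quantile normalization and median centring, at -1.54 without both arrays numbered 1, and at -1.56 with the replicate block, which leaves means unchanged by its construction. No gene changed sign in 576 such values. The direction is fixed by how the genes were chosen and is no sign of stability. Without 1 array the difference moved by over 1.5 times in 4 genes, AT4G08780, AT1G19530, AT5G19240 and AT1G47400.

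Of 13355 genes, limma called 146 lower and 216 higher. With the replicate block it called 428 and 619, and without 1 array 15 to 224 lower and 21 to 349 higher. Of 243 list genes, 3 were lower and 8 higher, 15 and 19 with the replicate block, 1 lower with an intensity trend, and 0 to 6 lower and 1 to 13 higher without 1 array. These counts rest on 3 arrays a group, and signal near background limits what can be read from genes with means under 1. The cause of the changes in these counts was not tested.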
